A study of Mus musculus with 57 samples.

Results

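Adiponectin is a hormone of adipocytes, and 6 genes of its route from assembly to target cell were followed at the mRNA level: Adipoq, which encodes the hormone itself, Erp44 and Gstk1, which act on its assembly and secretion in the endoplasmic reticulum (ER), and Adipor1, Adipor2 and Cdh13, which encode its receptors. The genes were chosen by these roles, with earlier results of these data known. They were found by symbol among the 52853 genes of the count tables, and all 6 passed the filter on low counts in every comparison. The study sequenced polyA RNA of adipose tissue from mice with the R707W substitution in Mfn2, a GTPase of the outer mitochondrial membrane that takes part in mitochondrial fusion, and asked what the substitution does to the transcriptome of fat. Knock-in (KI) mice were homozygous (Mfn2 R707W/R707W), made by CRISPR-Cas9 on a C57BL/6 J background and bred from 1 founder, and wild-type (WT) mice were their littermates. All were males that entered the diets at 5 weeks of age and stayed on them for 6 months, either a high-fat diet (HFD) with 45% of energy from fat or chow. The 6 groups were inguinal white adipose tissue (WAT) on HFD from 8 WT and 8 KI mice, inguinal WAT on chow from 7 WT and 6 KI mice, and brown adipose tissue (BAT) on HFD from 6 WT and 6 KI mice. The substitution is present in every cell of the animal, so a difference between genotypes is not limited to adipocytes.

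Adiponectin circulates at high concentration as trimers, hexamers and larger multimers, which form inside the adipocyte through disulphide bonds and modified lysines of its collagen-like stretch. Erp44 is a thioredoxin-like protein that holds incompletely assembled adiponectin back through its thiols, and Gstk1 (also DsbA-L) is an oxidoreductase-like protein that favours multimers. Adipor1 and Adipor2 are multi-pass membrane receptors with ceramidase activity that act largely through AMP-activated protein kinase and through Ppara, while Cdh13 (T-cadherin) is a cadherin on a lipid anchor, abundant on endothelium and smooth muscle, that binds the large multimers. White fat is the main source of the hormone in the body and brown fat makes it too.

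The sequences below show the region directly upstream of the annotated start of Adipoq and of Adipor1, the members whose mRNA differed most clearly between genotypes. Adipoq lies on chromosome 16 (GRCm38, chr16:23146536-23158028, plus strand) and Adipor1 on chromosome 1 (chr1:134415378-134433351, plus strand). Each stretch covers the 250 bases before the start, at chr16:23146286-23146535 and chr1:134415128-134415377, from the promoter table of RefSeq on GRCm38.p6. Capitals mark CCAAT and GGGCGG on either strand (ATTGG and CCGCCC read from the other).
Adipoq: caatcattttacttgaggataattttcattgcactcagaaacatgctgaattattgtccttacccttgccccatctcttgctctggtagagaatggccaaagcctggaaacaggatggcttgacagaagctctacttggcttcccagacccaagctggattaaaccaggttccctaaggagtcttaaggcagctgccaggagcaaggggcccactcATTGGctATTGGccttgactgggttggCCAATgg
Adipor1: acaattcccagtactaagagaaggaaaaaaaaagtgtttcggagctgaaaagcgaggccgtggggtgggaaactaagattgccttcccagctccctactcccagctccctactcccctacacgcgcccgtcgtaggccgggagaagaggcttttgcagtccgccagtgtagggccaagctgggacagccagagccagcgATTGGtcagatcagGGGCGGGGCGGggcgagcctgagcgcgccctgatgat
The Adipoq stretch, with a GC content of 48.8%, held 3 CCAAT matches, which began 34, 27 and 7 bases before the start, and no GGGCGG. The Adipor1 stretch, with a GC content of 59.6%, held 1 CCAAT match 51 bases before the start and 2 overlapping GGGCGG matches 37 and 32 bases before it. The table holds a second start of Adipor1 downstream of this, whose stretch (chr1:134415414-134415663, GC content 79.2%) held no CCAAT and GGGCGG matches 61 and 11 bases before that start. Over the 32851 mouse promoter stretches of the same length, 33.8% held CCAAT and 32.7% held GGGCGG. An E box (CANNTG, in 66.2% of all stretches) was found 61 bases before the start of Adipoq and not in Adipor1. TATAAA (12.4% of all stretches), AGGTCA (14%) and TGATGNAA, an element read by C/EBP-ATF dimers (3.45%), were found in neither. Matches describe these letters only.

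The primer pair used for quantitative PCR of Adipoq falls in the coding sequence of exon 2 of 3 and in both annotated transcripts, so it reads the same mRNA as the counts here.
Adipoq forward primer: gttgcaagctctcctgttcc
Adipoq reverse primer: atccaacctgcacaagttcc
The forward primer covers chr16:23155233-23155252, and the reverse primer, printed 5′ to 3′, pairs with chr16:23155333-23155352 and closes an amplicon of 120 bases. The other members lie on chromosome 4 (Erp44, chr4:48193323-48279558, minus strand), chromosome 6 (Gstk1, chr6:42245935-42250447, plus strand, and Adipor2, chr6:119353150-119417704, minus strand) and chromosome 8 (Cdh13, chr8:118283733-119324921, plus strand). Erp44 overlaps 1 other annotated gene and Cdh13 overlaps 5, but no exonic base is shared with them. The receptors Adipor1 and Adipor2 are related proteins, yet the longest run of bases common to their transcripts is 15, far below the length of a read.

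Libraries held 8042591 to 11720458 counts per mouse in BAT and chow-fed inguinal WAT and 17572752 to 25680411 in inguinal WAT on HFD, where each mouse had 2 technical libraries in 1 column. The member with the fewest counts was Erp44, with 326 in its lowest mouse, and Adipoq reached 74421. Levels are given as normalised read counts in counts-per-million (CPM), on library sizes scaled over all 41 mice by the trimmed mean of M values. Adipocyte markers were abundant everywhere, with a sum over 10 genes of 29008 to 48566 CPM, and brown adipocyte markers summed to 9321 to 15410 CPM in BAT and at most 487 CPM in inguinal WAT. Mfn2 itself was at a median of 157 CPM in WT and 211 CPM in KI inguinal WAT on HFD, 195 and 231 CPM on chow, and 344 and 426 CPM in BAT, but the counts do not tell its alleles apart and so do not check the genotype labels. By cut-offs on Acta1, Epcam and Cd79a, 9 mice carried RNA of neighbouring tissues. Chow WT mouse 4 had epithelial (124.8 CPM summed) and mesothelial (62.7 CPM) RNA, chow KI mouse 4 had skeletal muscle RNA (56663 CPM summed), and BAT WT mice 1 and 2 and BAT KI mouse 6 had Acta1 (skeletal muscle actin) at 305 to 623 CPM. Cd79a, a B cell gene, was at 82.6 to 210.0 CPM in 4 inguinal samples, which were WT mice 2 and 6 and KI mouse 2 on HFD and KI mouse 3 on chow. KI mouse 3 on HFD was not among the 9 but had the highest skeletal muscle (3573 CPM summed, group median 114) and epithelial sums (16.4 CPM, group median 1.23) of its group, and without it Adipoq (-0.83) and Adipor1 (0.30) kept their calls in edgeR there. Calls on the 6 genes and on the gene lists that change without the 9 mice are given both ways.

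Adipoq mRNA had a lower median in KI than in WT mice in both depots and on both diets, and the difference passed the threshold in inguinal WAT on HFD. There the 8 WT mice ran from 2222 CPM over a median of 2581 CPM to 3232 CPM. The 8 KI mice ran from 1250 CPM over 1470 CPM to 1908 CPM. Every KI mouse lay below every WT mouse, a separation that 4.64% of the 16471 genes tested showed. KI mice had 0.556 times the WT level, a log2 fold change of -0.85 ± 0.103 (SE, n = 8 and 8) with an adjusted p of 1.05e-05 in edgeR's quasi-likelihood test. Adipoq was 1 of 2 members past the threshold of 0.01 in this comparison, in which 11.5% of all genes passed it, 5.24% as lower and 6.21% as higher in KI mice. The size of its change exceeded that of 94.8% of the genes tested.

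On chow the 7 WT mice spanned 1825 to 3795 CPM around a median of 2900 CPM. The 6 KI mice spanned 1624 to 2255 CPM around 1811 CPM. All 6 KI mice were under the WT median and 3 were under the lowest WT mouse, so the groups overlapped, and the overlap came from WT mouse 4, the sample with epithelial and mesothelial RNA. The log2 fold change was -0.63 ± 0.149 (SE, n = 7 and 6) with an adjusted p of 0.0164 in edgeR, which did not pass 0.01. Without WT mouse 4 it was -0.71 and did pass, at an adjusted p of 0.00300 in edgeR. Without all 3 chow mice that carried other tissue it was -0.64, with an adjusted p of 0.0201 in edgeR. By edgeR no member was called on chow, where 3.23% of 14629 genes were, 1.96% as higher and 1.27% as lower in KI mice, and where 4.02% of genes separated the genotypes without overlap. DESeq2 called Adipoq (-0.63) and Adipor1 (0.30) on chow, and edgeR fitted on all 6 groups called Adipoq (-0.63).

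In BAT the WT mice lay between 978 and 1228 CPM with a median of 1070 CPM. The KI mice lay between 556 and 1009 CPM with a median of 612 CPM. Of the 6 KI mice, 5 were below the lowest WT mouse, and KI mouse 6, which carried muscle RNA, was within the WT range. The log2 fold change was -0.67 ± 0.147 (SE, n = 6 and 6), with an adjusted p of 0.0133 in edgeR. It passed the threshold without KI mouse 6 (-0.79, adjusted p = 0.00132 in edgeR) and without the 3 BAT mice that carried muscle RNA (-0.81, adjusted p = 0.00404 in edgeR). By edgeR 1.83% of 13267 genes were called in BAT, 1.36% as higher and 0.475% as lower in KI mice, none of the 6 members among them, and 3.66% of genes had no overlap between genotypes. Adipoq in BAT was called by DESeq2 (-0.65), in the fit of all 6 groups (-0.62), without the filter on low counts (-0.66) and with mouse number as a replicate block (-0.70), and Adipor1 in the fit of all 6 groups (0.37).

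Single-mouse CPM values were also compared by 2-sided exact permutation tests, adjusted over 18 pairs of gene and comparison. For Adipoq the mean fell from 2692 ± 336 to 1504 ± 224 CPM (SD, n = 8 and 8) in inguinal WAT on HFD, with an adjusted p of 0.0028 in the exact test, from the smallest unadjusted p this design allows, 0.000155. On chow it fell from 2893 ± 601 to 1861 ± 266 CPM (SD, n = 7 and 6, adjusted p = 0.028, exact permutation test), and in BAT from 1080 ± 94.6 to 694 ± 177 CPM (SD, n = 6 and 6, adjusted p = 0.0292, exact permutation test). Without the mice that carried other tissue the adjusted p was 0.0571 in the exact test both on chow and in BAT, with fewer mice left and differences of -1095 and -465 CPM. The KI mice left were at 1641 to 2255 CPM and the WT mice left at 2600 to 3795 CPM on chow. In BAT they were at 556 to 798 and 978 to 1228 CPM, again without overlap. The exclusion, chosen after the data were seen, took out the mice behind the overlap, WT mouse 4 on chow and KI mouse 6 in BAT. How many of all genes separate in the mice left was not counted. The unadjusted p was the smallest these numbers of mice allow, so 0.0571 cannot rank these differences against those in all mice.

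Ordered by median, Adipoq was highest in chow-fed WT inguinal WAT (2900 CPM), followed by WT on HFD (2581), KI on chow (1811), KI on HFD (1470), WT BAT (1070) and KI BAT (612 CPM). The ranges of neighbours in this order overlapped, except that KI inguinal WAT on HFD lay wholly above WT BAT. Between the diets Adipoq differed by a log2 fold change of -0.11 in WT mice (95% CI -0.36 to 0.14) and -0.31 in KI mice (95% CI -0.57 to -0.05, adjusted p = 0.0514 in edgeR), neither past the threshold. Between the depots on HFD it was lower in BAT, by -1.26 ± 0.130 in WT mice (log2, SE, adjusted p = 7.89e-10 in edgeR) and -1.05 ± 0.129 in KI mice (log2, SE, adjusted p = 2.45e-08 in edgeR). Each tissue and diet came as its own count table, so diet or depot and any other difference between the tables cannot be told apart. The lower Adipoq in KI mice itself did not differ detectably between diets (difference of log2 fold changes -0.20, 95% CI -0.56 to 0.17) or between depots (0.22, 95% CI -0.15 to 0.58).

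**Figure D1:**
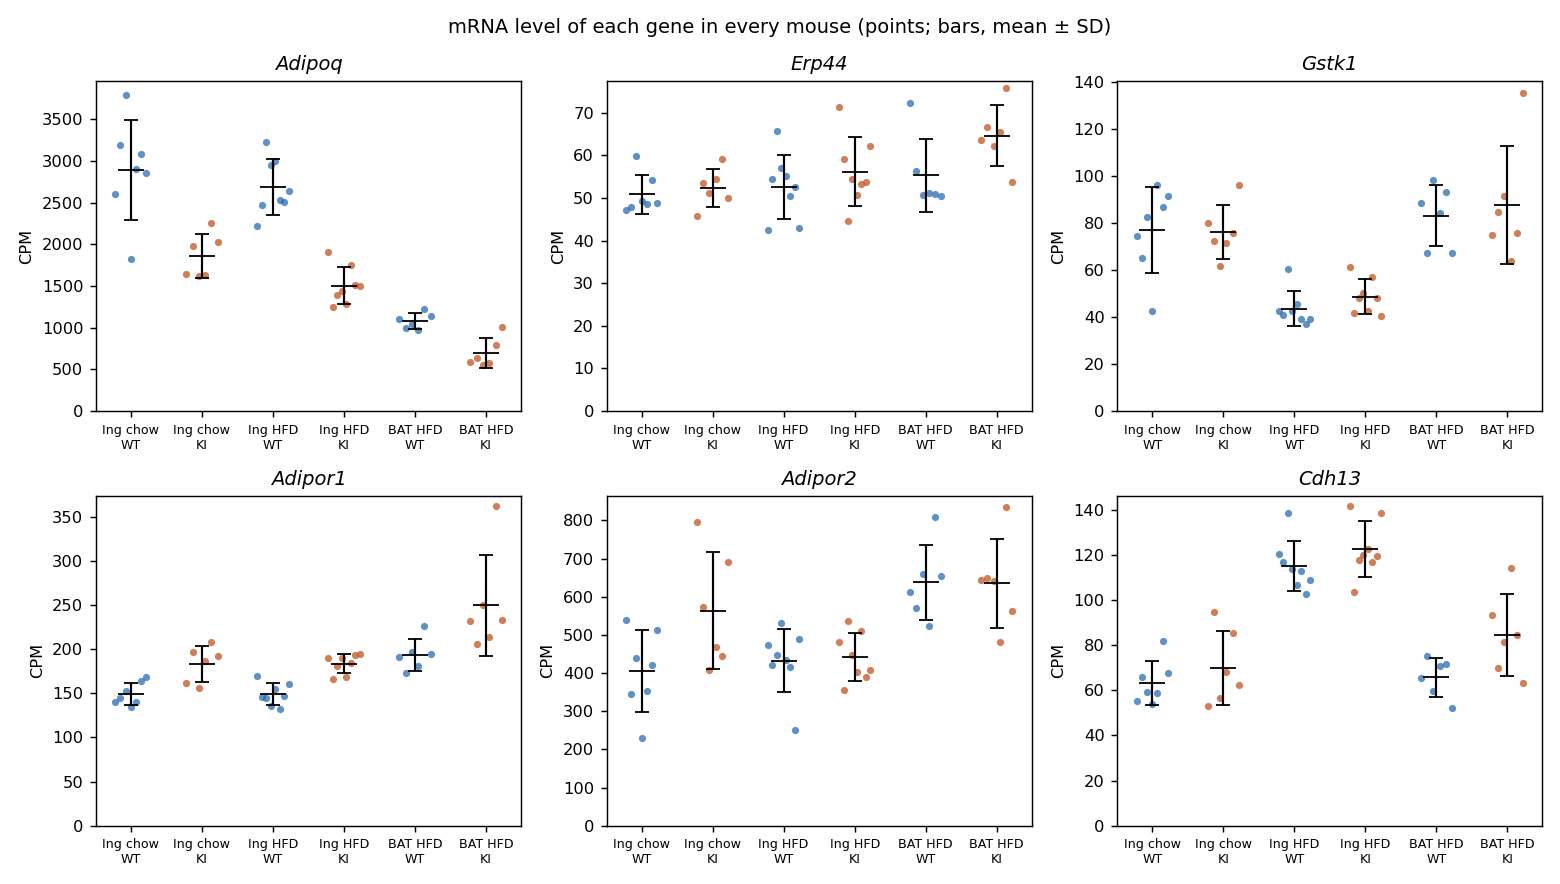
Normalised read counts (CPM, vertical axis, linear from 0) of the 6 genes in every mouse (points, blue for WT and orange for KI) by tissue, diet and genotype, with bars at mean ± SD. Adipoq sits lower in KI than in WT mice in all 3 settings and without overlap in inguinal WAT on HFD, while Gstk1 and Cdh13 are set apart mainly by diet and depot.

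Other mRNA of adipocytes was set beside Adipoq. The sum of 10 adipocyte markers (among them Plin1, Cidec, Fabp4 and Lpl) had medians of 38835 CPM in WT and 38369 CPM in KI inguinal WAT on HFD, 42341 and 44521 CPM on chow, and 39786 and 39322 CPM in BAT. Of these 10 markers 3 were called on HFD in inguinal WAT, the largest rise being Lipe (hormone-sensitive lipase, log2 fold change 0.54) and the only fall Gpd1 (glycerol-3-phosphate dehydrogenase, -0.51), and none was called on chow or in BAT. Over all genes tested 11.5% were called on HFD in inguinal WAT, 3.23% on chow and 1.83% in BAT. Gpd1 was not called without the mice that carried other tissue (-0.48, adjusted p = 0.0204 in edgeR). Adipoq was then set against the mean log2 level of the 10 markers in the same mouse. In inguinal WAT on HFD this difference ran from -0.18 over a median of 0.11 to 0.24 in WT mice and from -0.97 over -0.78 to -0.54 in KI mice. On chow it ran from -0.25 over 0.04 to 0.42 in WT and from -1.03 over -0.73 to -0.52 in KI mice. In BAT it ran from -1.46 over -1.32 to -1.06 in WT and from -2.28 over -1.89 to -1.30 in KI mice. The genotypes did not overlap in inguinal WAT on either diet, and in BAT only KI mouse 6 reached the WT range. KI mice were lower by -0.84 on HFD (adjusted p = 0.000932), -0.79 on chow (adjusted p = 0.0035) and -0.58 in BAT (adjusted p = 0.013, 2-sided exact permutation tests adjusted over 6). On this scale chow WT mouse 4 stood at 0.04, the WT median. In bulk tissue, fewer cells of a type and less RNA per cell cannot be told apart.

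Of the other marker lists, the median sum of fibroblast and progenitor markers was lower in KI mice in each setting, like Adipoq. So were those of endothelial, macrophage, lymphocyte and epithelial markers, the last at medians of at most 1.49 CPM. Endothelial medians went from 1877 to 1832 CPM on HFD, 1214 to 976 on chow and 1938 to 1569 in BAT. Macrophage medians went from 384 to 318, 305 to 231 and 94.0 to 86.2 CPM. Lymphocyte medians went from 53.3 to 31.7, 33.5 to 21.5 and 16.5 to 15.7 CPM. The median sum of brown adipocyte markers was higher in each. Fibroblast and progenitor markers (7 genes, none at 0 in all mice of a group) summed to 1368 to 2407 CPM in WT and 1126 to 1668 CPM in KI inguinal WAT on HFD, to 1677 to 3364 and 1073 to 1634 CPM on chow, and to 333 to 765 and 209 to 323 CPM in BAT. Of the 7, 2 were called lower on HFD (Lum with the largest fall, -1.39), 1 on chow (Dpt, -1.29) and 2 in BAT (Pi16 with the largest, -1.62), and none was called higher. Over all genes tested 5.24%, 1.27% and 0.475% were called lower in these settings. Brown adipocyte markers (6 genes) summed to 9.80 to 21.6 CPM in WT and 19.2 to 46.1 CPM in KI inguinal WAT on HFD and to 15.2 to 58.6 and 78.9 to 487 CPM on chow, with Cidea, a lipid droplet protein of brown fat, called higher on both diets (log2 fold change 1.55 and 3.02) among 3 members tested. Without the mice that carried other tissue it was not called on chow (2.86, adjusted p = 0.0160 in edgeR). In BAT the brown list had no call among 6 tested. The part of these cells in the Adipoq difference was not tested. None of the endothelial, smooth muscle, macrophage, lymphocyte, skeletal muscle, epithelial or mesothelial markers that passed the filter was called in any of the 3 comparisons by edgeR, and without the mice that carried other tissue the leukocyte gene Ptprc was, lower on HFD in inguinal WAT (-0.72, adjusted p = 0.00154 in edgeR).

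**Figure D2:**
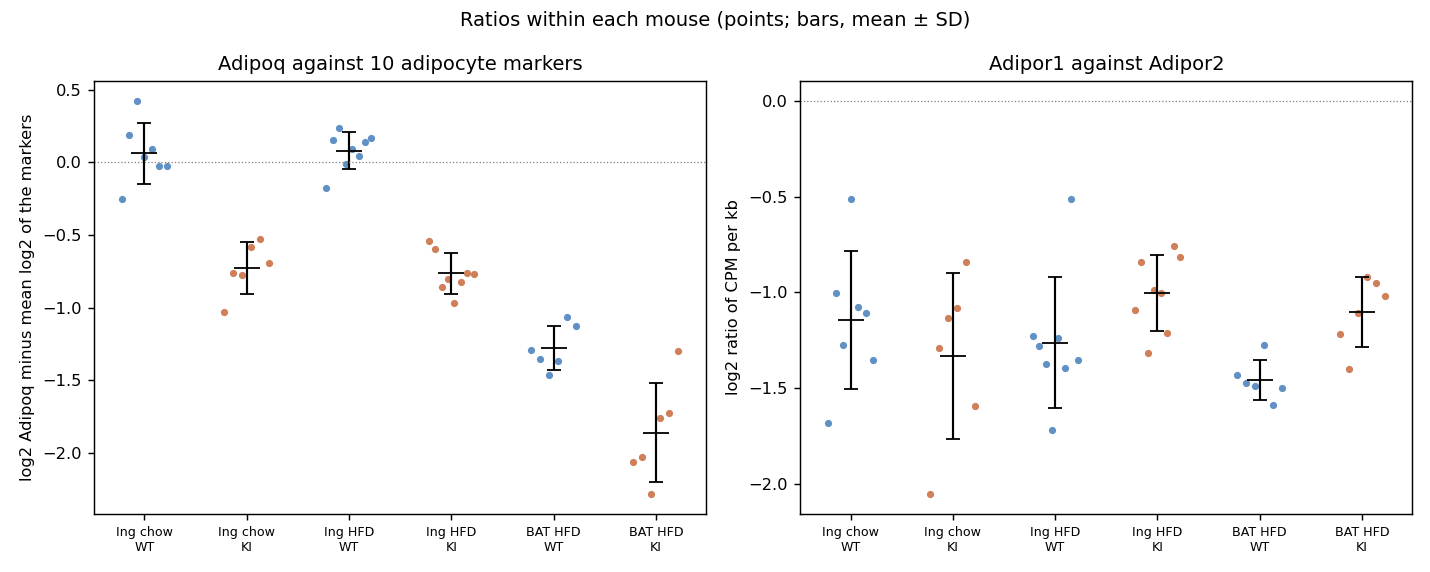
Values within each mouse (points, blue for WT and orange for KI, bars at mean ± SD) by tissue, diet and genotype. Left, log2 CPM of Adipoq minus the mean log2 CPM of 10 adipocyte markers, lower in KI mice in all 3 settings (-0.84, -0.79 and -0.58), and right, the log2 ratio of Adipor1 to Adipor2 in CPM per kilobase, below 0 in all 41 mice.

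The assembly factors showed no genotype difference past the threshold in edgeR. Erp44 in inguinal WAT on HFD was at 42.5 to 65.7 CPM (median 53.5) in WT and 44.6 to 71.4 CPM (median 54.1) in KI mice, on chow at 47.3 to 59.8 CPM (48.8) and 45.7 to 59.1 CPM (52.4), and in BAT at 50.5 to 72.3 CPM (51.1) and 53.8 to 75.8 CPM (64.5). The genotypes overlapped in each setting. Its log2 fold change was 0.09 on HFD (95% CI -0.12 to 0.30) and 0.04 on chow (95% CI -0.12 to 0.21), so a change of Erp44 in inguinal WAT as large as that of Adipoq lay outside the intervals. In BAT all 6 KI mice were above the WT median, and the log2 fold change was 0.19 (95% CI -0.05 to 0.43, adjusted p = 0.322 in edgeR). WT mouse 1, at 72.3 CPM, decided that value: the mean difference of 9.25 CPM (adjusted p = 0.13, exact permutation test) became 12.6 CPM with an adjusted p of 0.0312 in the exact test without this mouse. Without all 3 BAT mice that carried muscle RNA, this mouse among them, it was 15.9 CPM with an adjusted p of 0.0571 in the exact test. The KI mice left were then at 62.2 to 75.8 CPM and the WT mice left at 50.5 to 51.3 CPM. The unadjusted p was again the smallest these numbers of mice allow, and how many of all genes separate in these mice was not counted. Erp44 was also the steadiest member across diet and depot. Its group medians ran only from 48.8 to 64.5 CPM, and none of its diet or depot contrasts was called, the nearest being BAT over inguinal WAT in KI mice (0.27 ± 0.108, adjusted p = 0.0285 in edgeR).

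Gstk1 differed by diet and depot. In WT inguinal WAT it was at 42.6 to 96.2 CPM (median 82.6) on chow and 37.0 to 60.6 CPM (median 41.7) on HFD. In KI mice it was at 61.6 to 96.0 CPM (median 74.0) on chow and 40.6 to 61.3 CPM (median 48.1) on HFD. The diets did not overlap in KI mice, as for 16.7% of all genes tested. In WT mice, where 11.8% of genes had no overlap, only chow mouse 4 reached into the HFD range. On HFD it was lower by -0.83 ± 0.131 in WT mice (log2, SE, adjusted p = 8.98e-06 in edgeR) and -0.65 ± 0.136 in KI mice (adjusted p = 0.000289 in edgeR). Gstk1 was 1 of 2 members called between the diets, where 28.2% of 17400 genes were called in WT and 30.6% in KI mice. Between depots it was higher in BAT, where WT mice had 67.3 to 98.1 CPM (median 86.2) and KI mice 64.0 to 135.3 CPM (median 80.3). The log2 fold change of BAT over inguinal WAT was 0.99 ± 0.138 in WT (adjusted p = 2.69e-07 in edgeR) and 0.92 ± 0.138 in KI mice (adjusted p = 8.06e-07 in edgeR). The order of its levels thus put both BAT groups and both chow groups, which overlapped each other, above both HFD inguinal groups. Between genotypes Gstk1 differed by 0.16 on HFD (95% CI -0.06 to 0.38), -0.01 on chow (95% CI -0.33 to 0.31) and 0.05 in BAT (95% CI -0.29 to 0.39). In BAT the sign turned without KI mouse 6, at 135.3 CPM (-0.10), and without WT mouse 6 (-0.00189). On HFD the mean difference was 5.21 CPM (adjusted p = 0.324, exact permutation test), and without WT mouse 3, at 60.6 CPM, it was 7.66 CPM with an adjusted p of 0.0384 in the exact test.

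Of the receptors, Adipor1 was higher in KI than in WT mice, past the threshold of edgeR on HFD in inguinal WAT. There it ran from 133 over a median of 146 to 170 CPM in WT and from 167 over 187 to 195 CPM in KI mice. All 8 KI mice were above the WT median and 6 of 8 were above the highest WT mouse, so the groups overlapped slightly. KI mice had 1.23 times the WT level (log2 fold change 0.30 ± 0.0597, SE, adjusted p = 0.00146 in edgeR), the second call among the members in this comparison. In the fit of all 6 groups it was not called (0.29, adjusted p = 0.0130 in edgeR). On chow WT mice had 134 to 169 CPM (median 145) and KI mice 156 to 209 CPM (median 189), with all 6 KI mice above the WT median and 4 above every WT mouse. The log2 fold change was 0.30 ± 0.0815 (SE, adjusted p = 0.0345 in edgeR). In BAT WT mice had 173 to 226 CPM (median 193) and KI mice 206 to 362 CPM (median 233), again with all 6 above the WT median and 4 above the highest WT mouse. Here the log2 fold change was 0.33 ± 0.125 (SE, adjusted p = 0.114 in edgeR), and without KI mouse 5, the mouse at 362 CPM, it was 0.22. By 2-sided exact permutation tests of CPM the adjusted p was 0.0042 on HFD, 0.0294 on chow and 0.0325 in BAT. That of BAT rose to 0.0519 to 0.0649 when any of 9 of the 12 mice was left out, and that of chow to 0.053 for 4 of the 13 mice, in exact tests. Without the mice that carried other tissue the log2 fold change was 0.29 on HFD (adjusted p = 0.00571 in edgeR), 0.32 on chow (0.0604) and 0.32 in BAT (0.266), and the adjusted p in the exact test was 0.0857 on chow and 0.159 in BAT. The difference of the Adipor1 change between diets was 0.01 (95% CI -0.19 to 0.21) and between depots 0.07 (95% CI -0.20 to 0.35).

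Adipor1 did not depend on diet detectably, with log2 fold changes of HFD over chow of -0.02 in WT (95% CI -0.15 to 0.12) and -0.00283 in KI mice (95% CI -0.15 to 0.14). It was higher in BAT than in inguinal WAT, by 0.44 ± 0.0951 in WT (adjusted p = 0.000198 in edgeR) and 0.51 ± 0.0948 in KI mice (adjusted p = 2.38e-05 in edgeR). Its order by median put KI BAT (233 CPM) first, then WT BAT (193), the 2 KI inguinal groups (189 on chow, 187 on HFD) and last the 2 WT inguinal groups (146 on HFD, 145 on chow). Neighbours in this order overlapped throughout.

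Adipor2 showed a different pattern, with wide spread between mice. In inguinal WAT on HFD WT mice had 250 to 532 CPM (median 440) and KI mice 355 to 537 CPM (median 429), with 4 KI mice on each side of the WT median. The log2 fold change was 0.02 (95% CI -0.24 to 0.29). On chow WT mice had 229 to 539 CPM (median 421) and KI mice 407 to 797 CPM (median 521). Of the 6 KI mice, 5 were above the WT median and 3 above every WT mouse, with a log2 fold change of 0.48 ± 0.194 (SE, adjusted p = 0.141 in edgeR) that did not pass. In BAT the values were 522 to 808 CPM (median 634) in WT and 480 to 835 CPM (median 642) in KI mice, and the log2 fold change was -0.04 (95% CI -0.32 to 0.24). The change on HFD minus that on chow was -0.44 (95% CI -0.92 to 0.04, adjusted p = 0.351 in edgeR), so the diets were not shown to differ in it. Like Adipor1, it was higher in BAT, by 0.61 ± 0.134 in WT (adjusted p = 0.000193 in edgeR) and 0.59 ± 0.134 in KI mice (adjusted p = 0.000282 in edgeR). HFD over chow was 0.09 in WT (95% CI -0.25 to 0.42) and -0.35 in KI mice (95% CI -0.70 to -0.00845, adjusted p = 0.0914 in edgeR). By median the order was KI BAT (642 CPM), WT BAT (634), KI on chow (521), WT on HFD (440), KI on HFD (429) and WT on chow (421), with overlap between all neighbours.

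The balance of the 2 receptors was taken within each mouse as the log2 ratio of Adipor1 to Adipor2 in CPM per kilobase of exon. It was below 0 in all 41 mice, so Adipor2 mRNA was the more abundant of the pair per length. In BAT the ratio ran from -1.58 over -1.48 to -1.27 in WT and from -1.40 over -1.06 to -0.92 in KI mice. Those ranges overlapped in part, and KI mice were higher by 0.36 (adjusted p = 0.00866, 2-sided exact permutation test, n = 6 and 6). In inguinal WAT on HFD it ran from -1.71 over -1.32 to -0.51 in WT and from -1.31 over -0.99 to -0.76 in KI mice. WT mouse 7, whose Adipor2 was the lowest of its group at 250 CPM, stood at -0.51 and decided this comparison. With it KI mice were higher by 0.26 (adjusted p = 0.1, exact permutation test), and without it by 0.37 (adjusted p = 0.00435, exact permutation test). On chow the ratio ran from -1.68 over -1.11 to -0.51 in WT and from -2.05 over -1.21 to -0.84 in KI mice, a difference of -0.19 (adjusted p = 0.42, exact permutation test).

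Cdh13 rose with HFD in inguinal WAT. WT mice had 54.0 to 82.0 CPM (median 59.2) on chow and 103 to 138 CPM (median 113) on HFD. KI mice had 53.1 to 94.6 CPM (median 65.2) on chow and 104 to 142 CPM (median 120) on HFD. The diets did not overlap in either genotype, as for 11.8% of all genes tested in WT and 16.7% in KI mice. The log2 fold change was 0.85 ± 0.107 in WT (adjusted p = 2.89e-07 in edgeR) and 0.81 ± 0.112 in KI mice (adjusted p = 1.26e-06 in edgeR), the second member called between the diets. BAT, at 52.1 to 75.1 CPM (median 68.1) in WT and 63.1 to 114 CPM (median 83.0) in KI mice, was lower than inguinal WAT on the same diet, by -0.75 ± 0.107 and -0.47 ± 0.105 (adjusted p = 3.32e-07 and 0.000244 in edgeR). Endothelial markers (8 genes), of the cell type in which Cdh13 is abundant, summed to 1149 to 1526 CPM on chow and 1703 to 2002 CPM on HFD in WT inguinal WAT, to 823 to 1340 and 1571 to 2008 CPM in KI, and to 1680 to 2091 and 1371 to 2144 CPM in WT and KI BAT. Their medians were higher on HFD, like Cdh13. From inguinal WAT on HFD to BAT the median went from 1877 to 1938 CPM in WT and from 1832 to 1569 CPM in KI mice. Smooth muscle and pericyte markers (6 genes), of the other cell type named above, had medians of 1341 CPM on chow and 1302 CPM on HFD in WT inguinal WAT, of 1043 and 1367 CPM in KI, and of 1111 and 869 CPM in WT and KI BAT. The part of these cells in the Cdh13 differences was not tested. Between genotypes Cdh13 differed by 0.08 on HFD (95% CI -0.07 to 0.24) and 0.15 on chow (95% CI -0.14 to 0.43). In BAT 5 of 6 KI mice were above the WT median and 4 above the highest WT mouse, with a log2 fold change of 0.34 ± 0.141 (SE, adjusted p = 0.151 in edgeR, adjusted p = 0.1 in the exact permutation test). The genotype difference in BAT minus that in inguinal WAT was 0.28 (95% CI -0.02 to 0.59, adjusted p = 0.261 in edgeR). By median the order was KI and WT inguinal WAT on HFD (120 and 113 CPM), KI and WT BAT (83.0 and 68.1) and KI and WT inguinal WAT on chow (65.2 and 59.2), and all neighbours overlapped.

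**Figure D3:**
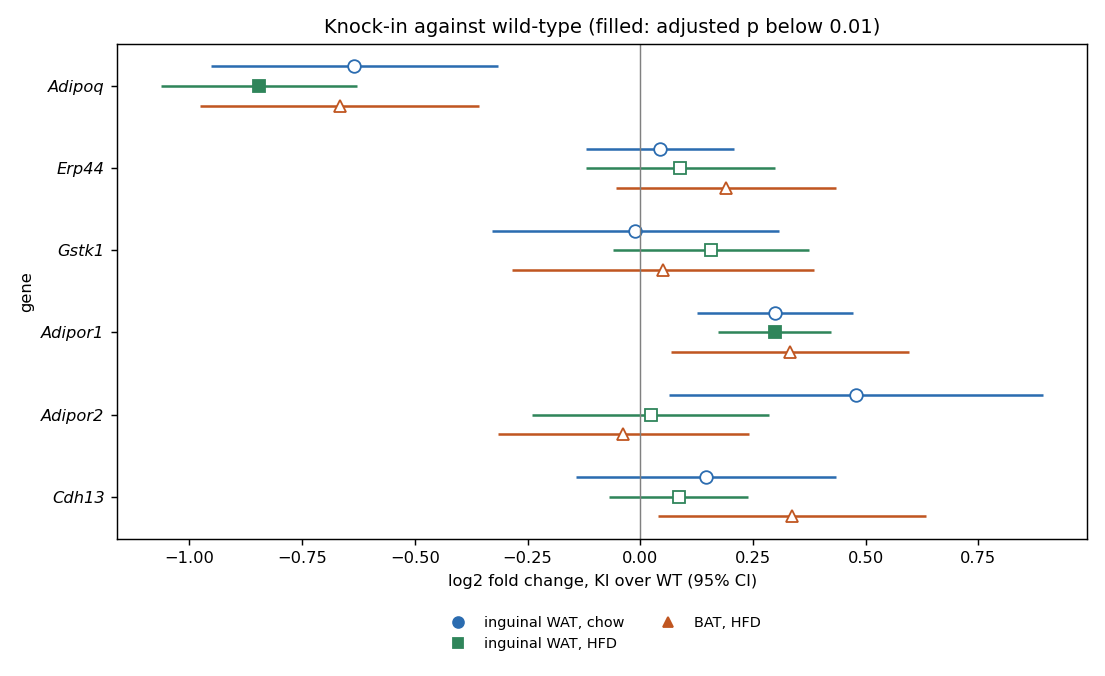
Log2 fold change of KI over WT mice (horizontal axis, edgeR, lines show the 95% confidence interval) of the 6 genes in inguinal WAT on chow, inguinal WAT on HFD and BAT on HFD, with filled symbols at an adjusted p below 0.01. Filled symbols are Adipoq (-0.85) and Adipor1 (0.30) in inguinal WAT on HFD, and both genes lie on the same side of 0 in the other settings.

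Between depots 5 of the 6 members were called in each genotype, all but Erp44, against 55.9% of 17214 genes in WT and 59.1% in KI mice. Gstk1, Adipor1 and Adipor2 were higher in BAT, and Adipoq and Cdh13 were lower. None of the 6 was called for a difference of the genotype effect between diets, where 0.632% of 17400 genes were (110 genes, or 64 without the mice that carried other tissue), nor between depots, where 2.82% of 17214 genes were (485 genes). The comparisons of WT and KI mice between diets and depots use the same HFD inguinal mice, so their values are not independent of each other.

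**Figure D4:**
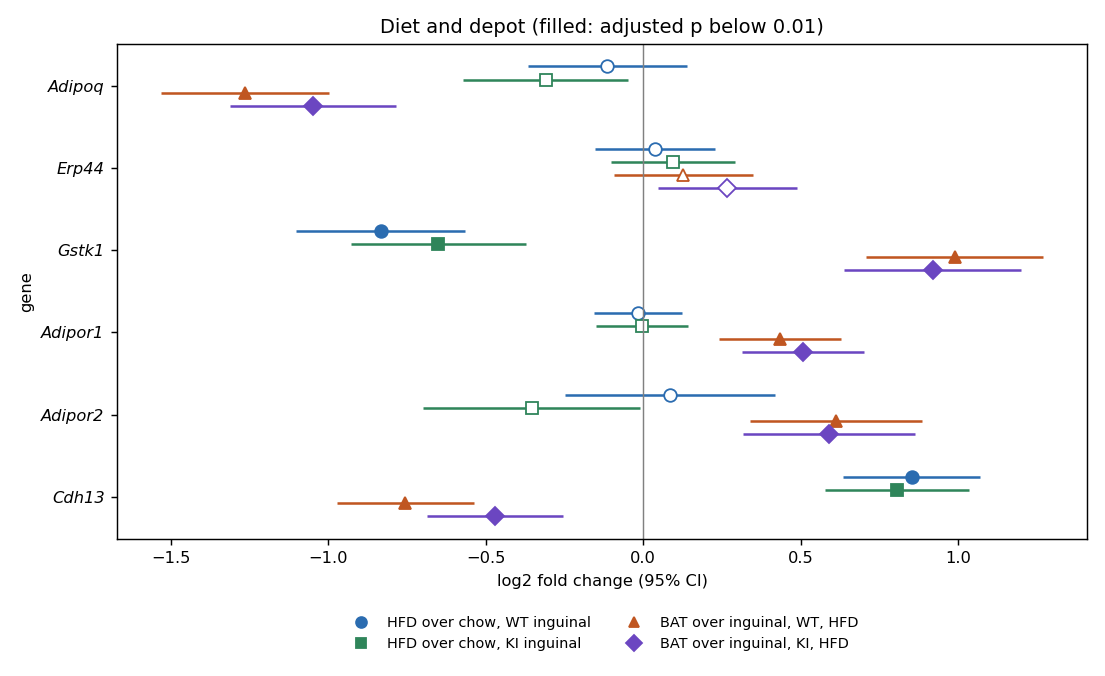
Log2 fold changes (horizontal axis, edgeR, lines show the 95% confidence interval) of HFD over chow in inguinal WAT and of BAT over inguinal WAT on HFD, each in WT and in KI mice, with filled symbols at an adjusted p below 0.01. Gstk1 is lower on HFD (-0.83 and -0.65) and higher in BAT (0.99 and 0.92), and Cdh13 is higher on HFD (0.85 and 0.81) and lower in BAT (-0.75 and -0.47).

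Per length of exon, Adipoq was by far the most abundant of the 6. In WT inguinal WAT on HFD its median was 1869 CPM per kilobase, followed by Adipor2 (73.7), Adipor1 (29.1), Gstk1 (28.4), Erp44 (15.7) and Cdh13 (10.1 CPM per kilobase). In WT BAT the medians were 775 for Adipoq, 106 for Adipor2, 58.7 for Gstk1, 38.4 for Adipor1, 14.9 for Erp44 and 6.06 CPM per kilobase for Cdh13. In WT inguinal WAT on chow they were 2100 for Adipoq, 70.4 for Adipor2, 56.2 for Gstk1, 28.9 for Adipor1, 14.3 for Erp44 and 5.27 CPM per kilobase for Cdh13. Gstk1 and Adipor1 had like medians in inguinal WAT on HFD, and that of Gstk1 was the higher in BAT and on chow.

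Other genes of the pathway were followed as lists. Among 13 tested transcription factors and regulators of Adipoq, Ddit3, the stress-induced factor also called Chop that dimerizes with C/EBP proteins, was the only call in inguinal WAT, higher in KI mice on HFD (34.8 ± 6.06 against 90.1 ± 11.7 CPM, SD, log2 fold change 1.37) and on chow (45.2 ± 6.31 against 105 ± 17.9 CPM, 1.22). In BAT it was higher too (78.9 ± 23.6 against 356 ± 191 CPM, 2.15), beside Atf3, another stress-induced factor (17.8 ± 7.19 against 120 ± 65.7 CPM, 2.73), and none of the list was called lower. Of all genes tested, 6.21% were called higher on HFD in inguinal WAT, 1.96% on chow and 1.36% in BAT. The count of 1 call among 13 on HFD is near that share. Ddit3 was not called in BAT without the mice that carried other tissue (2.39, adjusted p = 0.0185 in edgeR), and Cebpa, a C/EBP factor of adipocytes, was called on HFD in inguinal WAT (0.52, against 0.50 and an adjusted p of 0.0196 with them, in edgeR). Pparg, the nuclear receptor that drives Adipoq transcription and a gene chosen here for that role, was not called, with values of 0.29, 0.28 and 0.34 (adjusted p = 0.127, 0.341 and 0.114 in edgeR) on HFD, on chow and in BAT. The median change of the list was 0.17, -0.06 and -0.12, beside medians over all genes of 0.00547, -0.00850 and -0.01.

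Of the 19 genes for ER and Golgi handling, such as chaperones, oxidases and collagen-modifying enzymes, 4 were higher and 1 lower in KI inguinal WAT on HFD, 2 higher on chow and 2 higher in BAT. Over all genes tested 6.21% were higher and 5.24% lower on HFD, 1.96% higher on chow and 1.36% higher in BAT. P4ha2, a prolyl hydroxylase of collagen-like proteins, rose most on HFD (0.68 ± 0.121, adjusted p = 0.000496 in edgeR), and Plod2, a lysyl hydroxylase, fell (-0.43 ± 0.0952, adjusted p = 0.00342 in edgeR). Ero1l, the oxidase that works against Erp44 and frees adiponectin for secretion, rose most on chow (12 ± 2.00 against 25.5 ± 5.96 CPM, SD, log2 fold change 1.08, adjusted p = 0.000767 in edgeR) and in BAT (16.5 ± 3.68 against 42.8 ± 19.2 CPM, 1.35, adjusted p = 0.00877 in edgeR), and was also among the 4 on HFD (0.45). The other call on chow and in BAT was Sel1l, a part of ER-associated degradation (0.48 and 0.55), named after its value was seen. Sel1l was not called in BAT without the mice that carried other tissue (0.53, adjusted p = 0.0224 in edgeR), nor was the disulphide isomerase Pdia4, 1 of the 4 rises, on HFD (0.38, adjusted p = 0.0138 in edgeR). Most of the list was not called, and its median change was 0.06 on HFD, 0.01 on chow and -0.15 in BAT.

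Downstream of the receptors, 5 of 20 genes were higher and 1 lower in KI inguinal WAT on HFD, where 11.5% of all genes were called. None of the 20 was called on chow or in BAT, where only 3.23% and 1.83% of all genes were. Prkaa2, a catalytic subunit of AMP-activated protein kinase, rose most (5.54 ± 0.976 against 9.13 ± 1.72 CPM, SD, log2 fold change 0.72, adjusted p = 0.000804 in edgeR), and Acer3, a ceramidase, fell (-0.41 ± 0.0873, adjusted p = 0.00234 in edgeR). On chow Prkaa2 went from 6.51 ± 1.48 to 15.0 ± 9.52 CPM between WT and KI (SD, log2 fold change 1.21, adjusted p = 0.0219 in edgeR), and BAT had a log2 fold change of 0.69 (adjusted p = 0.0296 in edgeR). Ppara, the nuclear receptor downstream of Adipor2, was at 0.76 on HFD (adjusted p = 0.0470 in edgeR) and 1.14 on chow (adjusted p = 0.0224 in edgeR), named after its value was seen. Whether the list differed between diets was not tested. The other 4 rises, named after their values were seen, were the adaptor Appl1 (0.31), the upstream kinases Camkk2 (0.40) and Stk11 (0.31) and the second catalytic subunit Prkaa1 (0.36). Stk11 was not called without the mice that carried other tissue (0.28, adjusted p = 0.0259 in edgeR), and Ppargc1a, a coactivator of mitochondrial genes that is also in the list of regulators, was called in BAT (1.65, against 1.23 and an adjusted p of 0.0352 with them, in edgeR). The list's median was 0.24 on HFD, 0.00728 on chow and 0.08 in BAT.

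Relatives of the members were followed as well. Of all genes tested, 5.24% were called lower and 6.21% higher in KI mice on HFD in inguinal WAT. On chow 1.27% were called lower, and in BAT 0.475%. No member of the C1q and TNF related family, the paralogues of adiponectin, was called in any setting by edgeR (10, 10 and 9 tested). Among the progestin and adipoQ receptor family without the 2 adiponectin receptors, 2 of 7 were lower on HFD, Paqr9 (114 ± 22.3 against 29.2 ± 5.64 CPM, SD, log2 fold change -1.97) and Mmd (-0.87, named after its value was seen), 1 of 7 on chow (Paqr4, -0.70) and none of 8 in BAT. Of 9 other secreted adipocyte proteins, 4 were lower and 2 higher on HFD, with Retn (resistin, -1.05 ± 0.135, adjusted p = 1.84e-05 in edgeR) the largest fall and Agt (angiotensinogen, 2.14 ± 0.627 against 16.7 ± 5.05 CPM, 2.95) the largest rise. On chow 2 of 9 and in BAT 2 of 8 were lower, in both cases led by Rbp4, a retinol carrier (-2.36 and -2.89). Lep (leptin) was among the falls on HFD (-0.62) and not called on chow (-1.50, adjusted p = 0.0231 in edgeR) or in BAT (-1.72, adjusted p = 0.101 in edgeR), where it varied widely between mice. Without the mice that carried other tissue 3 of these 6 proteins were called on HFD, with Rbp4 (-0.84, adjusted p = 0.0112), Rarres2 (-0.35, adjusted p = 0.0135) and Apln (0.62, adjusted p = 0.0210, all in edgeR) no longer past the threshold, and 4 were called lower in BAT, with Lep (-2.02, adjusted p = 0.000526) and Rarres2 (-1.21, adjusted p = 0.00323) added.

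Over all 41 mice, the genes whose log2 level followed that of Adipoq most closely, among 9871 genes with at least 10 CPM on average, were Lrp3 (Pearson r = 0.928), Dpt (0.926), Glb1l2 (0.926), B3galt2 (0.923) and Htra1 (0.921). These values share the differences between the 6 groups. After each mouse's group mean was taken off they were Acadsb (0.762), Cd302 (0.757), Amy1 (0.756), Maob (0.755) and Adhfe1 (0.747). For the other members the closest over all mice were Eif4e for Erp44 (0.755), Fnta for Gstk1 (0.907), Pnpla2 (adipose triglyceride lipase) for Adipor2 (0.867) and Kat6b for Cdh13 (0.876). Ipo7 and Nr2c1 were also among the 3 closest to Erp44, Glrx3 and Sod1 to Gstk1, Klhdc2 and Stk40 to Adipor1, Hibch and Lpin1 to Adipor2, and Clasp1 to Cdh13. Among the members, Adipoq and Adipor1 ran against each other over all 41 mice (r = -0.733) and with each other within groups (0.399). Adipoq and Gstk1 did the same, at -0.287 over all mice and 0.676 within groups, and Gstk1 and Cdh13 ran against each other over all mice (-0.66) and not within groups (-0.01). The mice that carried other tissue are in all these correlations, which were not computed without them. Chow WT mouse 4, 1 of these mice, was the lowest of its group in Adipoq, Gstk1, Adipor1, Adipor2 and Cdh13. Counts per mouse were higher in inguinal WAT on HFD than in the other groups, and the correlations are descriptions without a test.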

How the data were processed

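PolyA RNA of 57 libraries was sequenced by the study as paired reads, and the deposited count tables hold 41 columns, 1 per mouse and tissue, with the technical libraries of each mouse in inguinal WAT on HFD deposited as 1 column. Per the labels and the study's methods, the authors removed adapters with cutadapt, aligned with STAR to GRCm38 and used SAMtools for sorting and featureCounts for the raw counts per gene. Versions, annotation release and strand setting are not given in the sources used here. The deposited tables also give a gene length in bases, which for all 6 genes equals the exonic bases of GENCODE vM21 and was used for CPM per kilobase.

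Of 54838 entries, 1884 that had neither length nor count were dropped and the first of each of 99 repeated symbols was kept, which left 52853 genes. Each comparison was fitted on the whole table with edgeR 4.0.16 in R 4.3.3 (TMM, filterByExpr, robust quasi-likelihood F test) and genotype as the only term, and a gene was called at a Benjamini-Hochberg adjusted p below 0.01, the threshold of the study. Contrasts of diet and depot and differences of the genotype effect came from fits of the 4 groups concerned. The sources used here do not say whether BAT and inguinal WAT share animals, and they were treated as independent. Confidence intervals are 95% intervals from the t distribution of the fit. Single-mouse CPM values and ratios were compared by exact permutation tests, 2-sided, that ran through every split of the mice into groups of these sizes (scipy 1.17.1, called at an adjusted p below 0.05). The fits were tested on simulated data first. Other settings tried were RLE size factors, DESeq2 1.42.0, all genes without the filter, mitochondrially encoded genes left out, 1 fit of all 6 groups, a replicate block, a threshold of 0.05 and each mouse left out. The alternative without mice that carried other tissue (inguinal WAT with Acta1 over 1000, Epcam over 10 or Cd79a over 50 CPM, BAT with Acta1 over 100 CPM) was chosen after seeing the data.

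The members and the gene lists were chosen with earlier results of these data known. Named from each list are the called genes with the largest rise and the largest fall in each genotype comparison, and for likeness the 5 genes closest to Adipoq and the 3 closest to each other member by Pearson correlation of log2(CPM + 0.5), of which 2 genes are not reported here. Same-numbered mice of different groups deviated together in some pairs and not in others. Whether mouse numbers pair the samples was thus not settled, and the main fits did not use them as pairs. p-values set a difference against the spread between these mice. Promoter sequences are from RefSeq, whose table held entries for 5 of the 6 members, all but Cdh13.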

Additional observations from a re-analysis of the deposited data

Results flagged for a closer look

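In 48 groups of values, each gene or ratio in each group of mice, the mouse farthest from the rest was compared with the spread of its group. A gap as large as those below arises by chance in about 1 in 20 groups, and 5 were seen. Adipor1 in KI BAT was at 362 CPM in mouse 5, with the next mouse at 250.3 CPM. Erp44 in WT BAT was at 72.3 CPM in mouse 1, with the next at 56.4 CPM, and this mouse was 1 of those with Acta1 over 100 CPM. Gstk1 in WT inguinal WAT on HFD was at 60.6 CPM in mouse 3, with the next at 45.6 CPM. Adipor2 in the same group was at 250.3 CPM in mouse 7, with the next higher mouse at 416 CPM. The log2 ratio of Adipor1 to Adipor2 in that mouse was therefore also far from its group, at -0.51 against -1.23 in the next mouse. Neither mouse 3 nor mouse 7 of that group was among the 9 mice that passed the cut-offs for RNA of other tissues.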

How the results depend on the processing

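In inguinal WAT on HFD the fall of Adipoq was called under every alternative run, with log2 fold changes of -0.90 to -0.81 when each mouse was left out, and Adipor1 (0.27 to 0.32 with each mouse left out) under all but 1 fit of all 6 groups (0.29, adjusted p = 0.0130 in edgeR). On chow Adipoq (-0.71 to -0.56 with each mouse left out) was called in that fit (-0.63), by DESeq2 (-0.63) and at 0.05 (-0.63), and Adipor1 (0.26 to 0.34) by DESeq2 (0.30) and at 0.05 (0.30). In BAT Adipoq (-0.79 to -0.59) was called in the 6-group fit (-0.62), by DESeq2 (-0.65), without the filter (-0.66), with the replicate block (-0.70), at 0.05 (-0.67) and without mice that carried other tissue (-0.81), and Adipor1 (0.22 to 0.40) in the 6-group fit (0.37).

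Among numbers of genes called, 14 of 60 values moved by over 1.5 times. The 6-group fit called 1242 genes on HFD and 1088 on chow in inguinal WAT and 834 in BAT, a threshold of 0.05 called 3448, 1252 and 952, and DESeq2 called 1116 on chow, 714 in BAT, 408 for the difference between diets and 848 for that between depots. With mouse number as a replicate block the counts were 102 on chow, 42 for the difference between diets and 180 for that between depots. In BAT the block gave 363 calls, against 243 without it. The sources used here do not say whether same-numbered mice share more than a number. Of their pairs 2 of 8, 2 of 6 and 3 of 6 correlated over 0.1 in the 3 genotype comparisons. The mice of 1, 0 and 3 pairs correlated best with their own number. Between inguinal WAT on HFD and BAT 3 of 6 pairs did so in WT mice and 1 of 6 in KI mice. The difference between diets had 64 calls without mice that carried other tissue. With each mouse left out the counts ran from 288 to 497 on chow (288, 289 and 297 without WT mouse 2, 3 or 6, and 297 and 302 without KI mouse 2 or 6), from 134 to 313 in BAT (161, 148 and 134 without WT mouse 3, 4 or 6, and 144 without KI mouse 2) and from 69 to 269 for the difference between diets (220 and 71 without HFD WT or KI mouse 7, 206 and 73 without chow WT mouse 4 or 7, 69 and 269 without chow KI mouse 1 or 5). The causes were not tested.

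Signs turned only for changes that were not called. Gstk1 became 0.058 on chow with the replicate block (mean CPM difference turned on the log2 scale, 0.014) and -0.15 in BAT without mice that carried other tissue (-7.47 CPM), and Adipor2 became 0.00337 in BAT in the 6-group fit. Adipor2 for HFD over chow in WT mice was -0.011 without mice that carried other tissue, and Adipor1 in KI mice was 0.011 without the filter. The difference between diets of Adipor1 was -0.016 in the 6-group fit, -0.00782 by DESeq2, -0.00743 with RLE size factors, -0.00201 with the replicate block and -0.031 without those mice, and that between depots of Adipor2 was 0.00272 with the replicate block. With each mouse left out, Adipor2 ran from -0.062 to 0.066 on HFD (-17.2 to 23.0 CPM) and -0.11 to 0.046 in BAT (-43.2 to 30.7 CPM), and Gstk1 from -0.10 to 0.051 on chow (-6.59 to 2.35 CPM) and -0.10 to 0.12 in BAT (-4.86 to 9.41 CPM). The ratio of Adipor1 to Adipor2 on HFD ran from 0.19 to 0.37. For HFD over chow the ranges were -0.024 to 0.077 for Erp44, -0.056 to 0.011 for Adipor1 and -0.012 to 0.17 for Adipor2 in WT and -0.058 to 0.035 for Adipor1 in KI mice. For the difference between diets they were -0.00172 to 0.10 for Erp44, -0.034 to 0.049 for Adipor1 and -0.12 to 0.054 for Cdh13, and for that between depots -0.24 to 0.00675 for Gstk1, -0.061 to 0.12 for Adipor1 and -0.12 to 0.062 for Adipor2. Of 54 differences of mean CPM under other settings, 48 kept direction and call, and 4 lost their call without mice that carried other tissue (Adipoq and Adipor1 on chow and in BAT). For Adipoq the unadjusted p was there the smallest that the mice left allow. All 45 values of the ratios under other settings kept both, and the called diet and depot contrasts of the members kept theirs in every setting run. The lowest count of any member in a mouse was 326, for Erp44, and sets the counting error of the least precise value.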
